A study of Mus musculus with 4 samples.

Results

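Klf genes encode the Kruppel-like factors, and 10 of them (Klf2, Klf3, Klf4, Klf5, Klf6, Klf7, Klf9, Klf10, Klf13 and Klf15) were followed from the CMP control to OSKM-CMPs at days 4, 6 and 8. They were taken by gene name, which gave 12 array probes, and all 10 were among the 16658 genes measured. CMPs are Sca-1+ cardiac mesenchymal progenitors, which the study's methods took from the atria of adult C57BL/6 mice. The CMP control had no treatment and is labelled day 0, and the other cells received OSKM, the 4 factors Oct4, Sox2, Klf4 and c-Myc, from Sendai virus added the day before day 0. By the methods, OSKM-CMPs were then kept in a reprogramming medium, while the labels give a growth medium with bFGF for every sample. Each condition was measured on 1 Agilent single-colour array, with no second culture. The factors, the virus, the medium and the days in culture changed together between the control and OSKM-CMPs and cannot be told apart.

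Kruppel-like factors share a DNA-binding end of zinc fingers that reads GC-rich and CACCC boxes, and differ in the parts that recruit activators or repressors. In fat cell formation, Klf4, Klf5, Klf6, Klf9 and Klf15 are known as promoting members, acting at different points of the cascade from C/Ebp factors to Pparg, and Klf2, Klf3 and Klf7 as members that hold it back. Klf2 and Klf4 are also known as flow-induced genes of the endothelium, and Klf4 is one of the reprogramming factors.

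With 1 array per condition, no test was possible and no p-value is given. A level is the log2 processed signal minus the 75th percentile of its array, and a change is the difference of 2 levels. The error after ± is the SD that Feature Extraction's error model gives, which covers the spot on the array and neither cultures nor RNA preparation. For the bright Klf genes with 1 probe the error of a level was 0.144 on every array, so 2 errors are nearly a fixed cut. Averaging over several spots or probes makes the error smaller. The median error of a change was 0.20 on the log2 scale. A gene was counted as higher or lower when its change reached 2-fold. The arrays were alike in brightness, with a 75th percentile of signal between 388.5 and 410.9, and no spot was saturated. Of the 55681 probes, 56.6% to 59.6% were well above background on an array, and all 12 Klf probes were on all 4 arrays.

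Among the 10 Klf genes, Klf15 rose and Klf2 fell at least 2-fold on every day, Klf6 fell at day 4, and Klf5 fell at days 6 and 8. That made 1 member higher and 2 lower on each day, with 7 past 2-fold in neither direction. At day 4, 12.1% of all measured genes were higher and 9.57% lower by the same threshold. The shares were 13.0% and 11.4% at day 6, and 14.4% and 11.6% at day 8. Scaled by the array median, the day 8 shares were 11.3% and 16.9%. The shares on the main scale are the ones to set beside the counts of each gene list below. The median change of the members was -0.30, -0.24 and -0.23 on days 4, 6 and 8, and that of all genes was -0.01, -0.04 and -0.03.

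Of the members, 6 were below the control on all 3 days, namely Klf2, Klf4, Klf5, Klf6, Klf7 and Klf13, with the exception that Klf7 was at 0.00 at day 8 under quantile normalization. Klf10 and Klf15 were above the control on all 3 days. Klf3 and Klf9 lay below it at day 4 and above it at days 6 and 8, with Klf3 at 0.03 at day 4 under quantile normalization and Klf9 at -0.11 at day 8 on the array-median scale. The change exceeded 2 errors on every day for 5 members (Klf2, Klf4, Klf5, Klf6 and Klf15) and on no day for 3 (Klf3, Klf7 and Klf9).

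**Figure D1:**
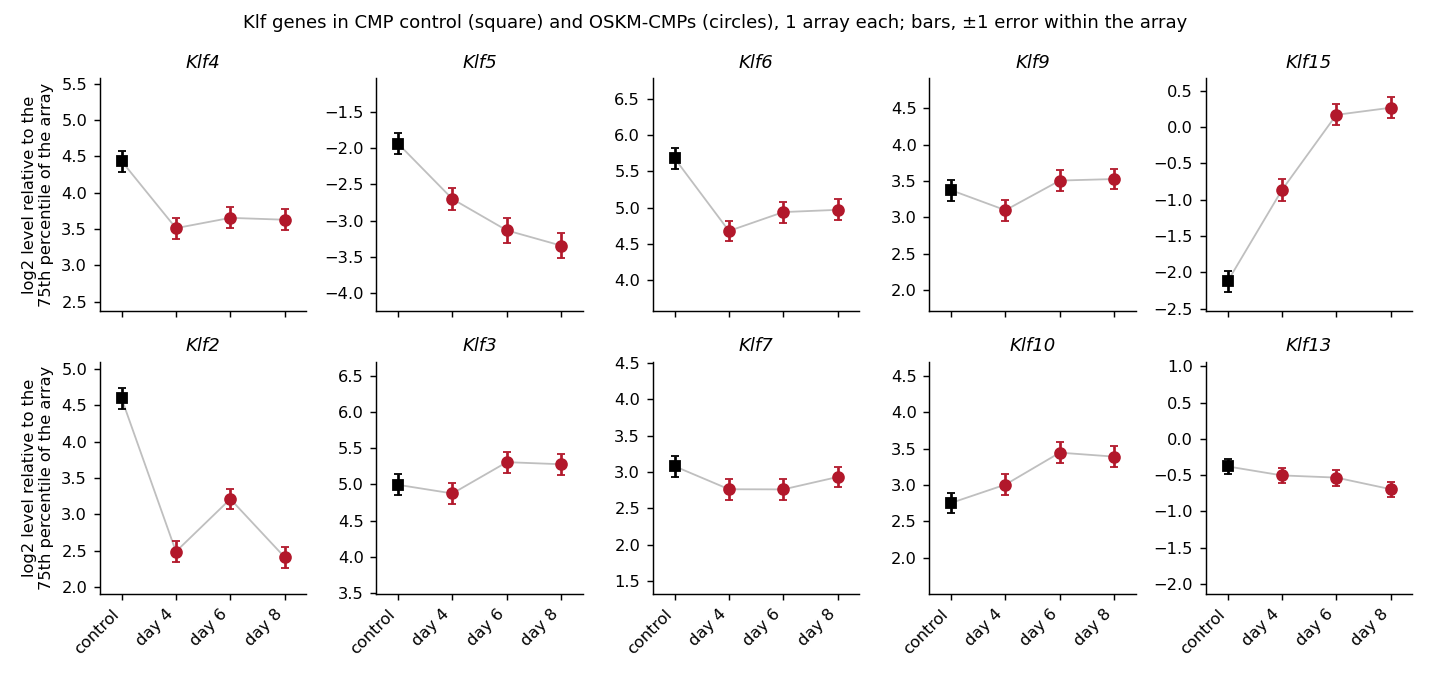
Levels of the 10 Klf genes on the 4 arrays, as log2 signal relative to the 75th percentile of the array, with the CMP control as a square and OSKM-CMPs as circles, 1 array each. Bars show 1 error within the array and every panel spans the same range of log2 units, so that the fall of Klf2, with a partial return at day 6, and the rise of Klf15 up to day 6 stand out against the flatter panels.

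**Figure D2:**
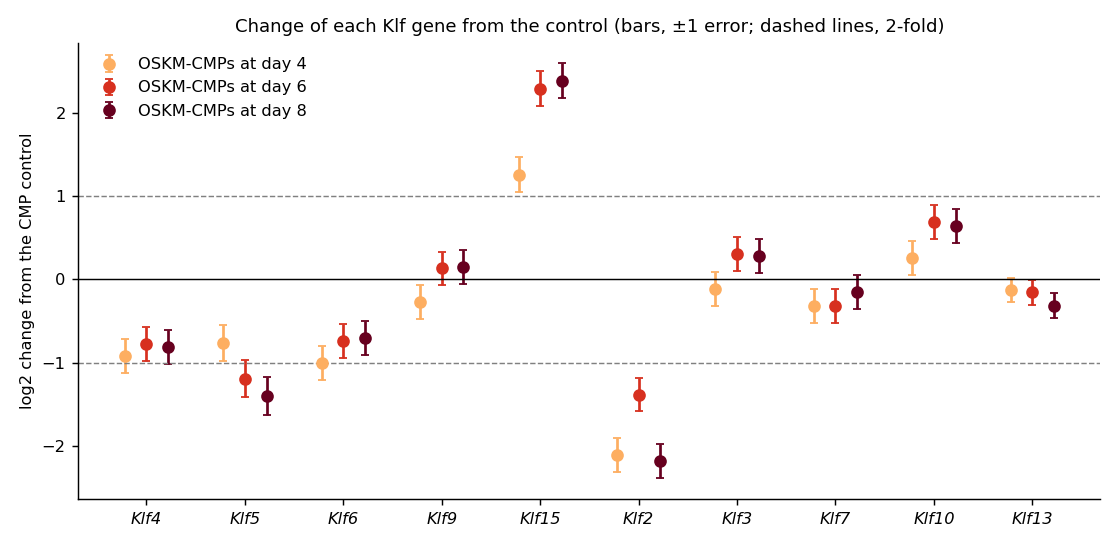
Log2 change of each Klf gene from the CMP control to OSKM-CMPs at days 4, 6 and 8, with bars of 1 error and dashed lines at 2-fold. Klf15 lies above the upper line on all 3 days and Klf2 below the lower line on all 3 days, and Klf6 at day 4 lies on the lower line.

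Promoters of 4 members that moved are shown first, since they differ in the motifs they hold. These are the 250 bases before the start of the gene in RefSeq (GRCm38.p6), on the strand of the gene, and 8 of the 10 members had an entry, Klf5 and Klf10 having none. Capitals mark the GC box GGGCGG, the CACCC box CCACCC and the E-box CACGTG, on either strand. Sites can share letters, as the pair of overlapping CCGCCC at the far end of the Klf4 promoter does.
Klf15, chr6:90462326-90462575, plus strand: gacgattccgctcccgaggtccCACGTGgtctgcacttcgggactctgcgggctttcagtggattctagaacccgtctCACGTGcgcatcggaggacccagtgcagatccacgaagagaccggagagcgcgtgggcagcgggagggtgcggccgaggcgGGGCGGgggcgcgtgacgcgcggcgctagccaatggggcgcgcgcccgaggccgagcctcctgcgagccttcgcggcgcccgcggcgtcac
Klf2, chr8:72318812-72319061, plus strand: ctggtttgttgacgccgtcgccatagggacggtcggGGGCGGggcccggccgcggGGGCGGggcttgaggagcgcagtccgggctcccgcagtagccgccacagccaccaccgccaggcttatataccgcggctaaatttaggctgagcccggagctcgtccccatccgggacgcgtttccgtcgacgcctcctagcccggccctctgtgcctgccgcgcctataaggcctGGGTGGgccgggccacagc
Klf4, chr4:55532476-55532725, minus strand: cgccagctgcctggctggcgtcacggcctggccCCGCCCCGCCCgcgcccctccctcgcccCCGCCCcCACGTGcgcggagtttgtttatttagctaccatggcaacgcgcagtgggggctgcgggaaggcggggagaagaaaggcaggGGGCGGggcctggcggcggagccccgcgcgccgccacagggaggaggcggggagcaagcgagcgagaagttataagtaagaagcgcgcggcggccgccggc
Klf6, chr13:5861239-5861488, plus strand: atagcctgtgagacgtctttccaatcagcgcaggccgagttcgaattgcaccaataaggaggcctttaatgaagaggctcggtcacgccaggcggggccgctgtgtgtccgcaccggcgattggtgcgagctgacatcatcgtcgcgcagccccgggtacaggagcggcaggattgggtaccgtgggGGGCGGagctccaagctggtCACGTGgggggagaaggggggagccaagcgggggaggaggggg
The E-box CACGTG, the sequence read by Myc and other factors of its class, was found in 3 of the 8 member promoters and in 6.02% of 32817 promoters of the same length. Klf15 held 2 copies, at 228 and 172 bases before the start, and Klf4 and Klf6 held 1 each, at 182 and 43 bases. Klf15 rose, whereas the changes of Klf4 and Klf6 were below 0 on all 3 days, so the genes with this motif did not move in 1 direction. The GC box was found in 7 of the 8 (32.72% of all promoters), all but Klf9, and the CACCC box in 4 (28.07%), Klf2, Klf3, Klf7 and Klf13. The exact letters TGACGTCA, a form of the cAMP response element, and TATTTATA, a form of the Mef2-type element, were in none of the 8 windows. They were in 1.55% and 1.56% of all promoters. Other forms of these 2 elements were not searched for, so their absence from the windows is not shown. A match gives letters only, and binding was not measured.

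Klf4 is both a gene of the cells and 1 of the 4 factors brought in by the virus, and in fat cell precursors it is known to act early, upstream of Cebpb. Its probe, at chr4:55540167-55540226 on mm9 (minus strand), gave a processed signal of 8413 in the CMP control and of 4424, 5110 and 5073 on days 4, 6 and 8. All 3 OSKM-CMP arrays were thus below the control and close to each other. The log2 change was -0.92 ± 0.20, -0.78 ± 0.20 and -0.81 ± 0.20 in that order, within 2-fold on each day, and -1.07 at both day 4 and day 8 on the array-median scale. From day 4 to day 8 it moved by 0.12 ± 0.20, less than its error. The first 30 of the 60 bases of this probe are given here because the reading depends on which RNA it detects.
Klf4 probe, first 30 bases, chr4:55540197-55540226 on mm9: gtttattcccaagtatgcctttaagcagaa
Where these bases lie in the transcript was not determined here, and whether the probe also detects the RNA from the virus was not tested. The Klf4 value is therefore the level at this stretch and not a measure of how much factor the cells received.

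Of the genes of the pluripotency circuit in which Klf4 works, 4 of 7 were measured, and Pou5f1 (Oct4), Sox2 and Zfp42 were not well above background on any array. Nanog changed by 0.27 ± 0.20 and Esrrb by 0.37 ± 0.35 at day 8. Tbx3, a T-box factor of that circuit and also of the heart, rose by 1.31 ± 0.20. With Tfcp2l1 counted at its bound of at least 1.71-fold higher, 1 of the 4 was past 2-fold.

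Klf5, a factor that C/Ebp proteins switch on and that in turn activates Pparg, declined over the days. Its signal was 101 in the CMP control, then 59.7, 46.2 and 40.4, well above background throughout. Each array was lower than the one before it. Measured from the control, the change was -0.76 ± 0.22, then -1.20 ± 0.22, and finally -1.41 ± 0.23, a fall to 2.65-fold below the control. The steps between neighbouring days were -0.43 ± 0.23 and -0.21 ± 0.24, each under 2 errors, and the whole step from day 4 to day 8 was -0.64 ± 0.23. Under normexp background correction with quantile normalization the change was -0.83 at day 8 and -0.70 at day 6, so that Klf5 no longer reached 2-fold.

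The Klf5 probe and 1 of the 3 Klf13 probes resemble each other more than any other pair of the Klf probes, so both are shown in full. They overlap by 40 bases when lined up, and 29 of these (72.5%) are the same letter. Capitals mark the shared letters.
Klf5 probe: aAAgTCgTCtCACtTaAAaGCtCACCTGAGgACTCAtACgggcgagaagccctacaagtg
Klf13 probe: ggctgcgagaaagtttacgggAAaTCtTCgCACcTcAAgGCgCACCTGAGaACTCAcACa
In the other pairs of Klf probes, lined up in the same way, at most 56.0% of the overlapping letters were the same. The Klf5 probe is split on the genome, spanning 9733 bases (chr14:99702656-99712388 on mm9), as a probe over an exon junction is. Cross-detection between the Klf5 and Klf13 RNAs was not tested, and the 2 probes differed in their course, with a day 8 change of -1.41 for Klf5 and -0.43 for this Klf13 probe.

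Klf6, an early gene of injury and differentiation that is known to repress Dlk1 in preadipocytes, had a signal of 19992 in the CMP control and of 9963, 12478 and 12894 as the days went on. The control was the highest of the 4 arrays and day 4 the lowest. At day 4 it was 2.00-fold lower (± 0.20 on the log2 scale), on the line of the threshold, and the log2 change was -0.74 ± 0.20 and -0.71 ± 0.20 on the later days. At day 4 it came within 2-fold under 4 of the 10 other settings, the smallest change being -0.81. On the array-median scale it was -1.145. The remaining settings gave -1.002 or -1.005, and by their design could hardly move a member with 1 probe above background on all 4 arrays. Dlk1, a preadipocyte marker, was 6.59 ± 0.16 above the control at day 8 and 7.04 at day 4.

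Klf9, a factor induced by glucocorticoid and thyroid hormone, changed little beside its error. The signal was 4033 in the CMP control, followed by 3325, 4613 and 4732 in OSKM-CMPs. Day 4 was the lowest array and days 6 and 8 were alike. The change was -0.28 ± 0.20, 0.13 ± 0.20 and 0.15 ± 0.20 in the same order, under 2 errors each time, and the step from day 4 to day 8 was 0.43 ± 0.20.

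Klf15, which is known to activate Pparg and the genes of amino acid breakdown and to be induced by glucocorticoids, had the largest rise of the 10. Its probe at chr6:90425144-90425203 on mm9 gave a signal of 89.1 in the CMP control against 213, 457 and 494 on days 4, 6 and 8. Every OSKM-CMP array was above the control, and days 6 and 8 were above day 4. The change was 1.26 ± 0.21, 2.29 ± 0.21 and 2.39 ± 0.21, or 5.25-fold at the last day. The step from day 4 to day 6 was 1.03 ± 0.20 and that from day 6 to day 8 only 0.10 ± 0.20, within its error. From day 4 to day 8 the rise was 1.13 ± 0.20. Klf15 was the 1 member at least 2-fold higher over that interval, as were 4.93% of all genes. Under normexp correction with quantile normalization that step was 0.97. At day 8, 95.2% of the measured genes had a smaller or more negative change. Under normexp correction with quantile normalization, which adds an offset to every signal and so shrinks the changes of dim probes, the values were 0.81 at day 4 and 1.78 at day 8.

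The genes of amino acid breakdown are a known Klf15 programme. At day 8, 5 of 12 were at least 2-fold higher and 0 were lower, with a median of 0.92, against 1 of 12 and a median of 0.46 at day 4. With Mccc2, not above background in the control, at its bound, the count was 4 and the median 0.80. Of all measured genes, 14.4% were at least 2-fold higher at day 8 and 12.1% at day 4. Gpt and Gpt2, the alanine transaminases, rose by 1.76 ± 0.20 and 1.59 ± 0.20, and Mccc1, a subunit of the leucine pathway carboxylase, by 1.30 ± 0.14. Prodh, the proline oxidase, changed by 0.70 ± 0.21.

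Other genes induced by glucocorticoids did not move in 1 direction. At day 8, 3 of 10 were at least 2-fold higher and 2 lower, with a median of 0.37, beside 14.4% and 11.6% of all genes. Pdk4, which holds back pyruvate oxidation, rose by 2.55 ± 0.20 and was as high at day 4 (2.55), and Zbtb16 rose by 2.14 ± 0.24 after a change of -0.14 at day 4. Dusp1, a phosphatase of the MAP kinases, fell by 3.04 ± 0.20. Glucocorticoid exposure of the cells was not measured.

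The adipocyte markers moved in the same direction as Klf15. All 7 were at least 2-fold higher at day 8, or 6 with Lep at its bound of at least 1.30-fold, and their summed linear level went from 2.57 in the control to 19.6, 127.3 and 318.6 at days 4, 6 and 8. Only 2 of the 7 were above background in the control and all 7 were at day 8. Cfd (adipsin) was at least 3890-fold higher and Fabp4, the fatty acid carrier, rose by 5.79 ± 0.20. In the adipogenic cascade, 5 of 11 genes were higher and 1 lower at day 8, with a median of 0.69, beside 14.4% and 11.6% of all genes. Pparg rose by 3.84 ± 0.07 and Zfp423 by 3.37 ± 0.13, and both had reached 3.64 and 2.67 by day 4, when Klf15 was at 1.26. Cebpb changed by -0.52 ± 0.20 and Cebpd, which like Cebpb precedes Klf5 in the known cascade, fell by 2.94 ± 0.20. In RNA from a whole culture, a change in the share of cells of a type and a change in RNA per cell cannot be told apart, and the part of adipocyte-like cells in the Klf15 value was not tested.

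Klf2, which is known to keep preadipocytes quiescent by repressing Pparg and to set the quiescent state of endothelium, had the largest fall. Its signal at chr8:74845137-74845196 on mm9 was 9414 in the CMP control and 2176, 3761 and 2181 over the next 3 arrays. The control was far above the other arrays, and day 6 was above days 4 and 8. The change was -2.11 ± 0.20, -1.39 ± 0.20 and -2.19 ± 0.20 at days 4, 6 and 8, that is, 4.32-fold, 2.61-fold and 4.56-fold lower. Between days 4 and 6 the level moved by 0.72 ± 0.20 and between days 6 and 8 by -0.80 ± 0.20, over 3 errors each way. At day 8, 3.81% of the measured genes had a more negative change. Over the 10 other settings, the day 8 value lay between -2.45 and -2.00.

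Most endothelial markers were lower in the same samples in which Klf2 and Klf4 were. All 7 were above background in the CMP control and 4, 3 and 3 at days 4, 6 and 8. Their summed linear level was 1.89 in the control and between 1.08 and 1.20 in OSKM-CMPs. At day 8, 5 of 7 were at least 2-fold lower, with a median of -2.09 where markers below background stand at their bound. Cdh5 (VE-cadherin) was at least 11.9-fold lower and Emcn at least 5.23-fold lower, whereas Pecam1 changed by 0.10 ± 0.16 and Kdr by -0.27 ± 0.11. The part of such cells in the Klf2 and Klf4 values was not tested.

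The known endothelial targets of Klf2 and Klf4 moved in both directions, with 2 of 7 higher, 2 lower and a median of 0.19 at day 8. Of all genes, 14.4% were higher and 11.6% lower. Thbd (thrombomodulin), which both factors are known to activate, rose by 1.87 ± 0.20, and Nos3, the endothelial nitric oxide synthase, by 1.35 ± 0.11. Edn1 (endothelin), which they are known to repress, fell by 3.58 ± 0.07, and Tek, the Tie2 receptor, fell by 2.70 ± 0.27. Of the Erk5-Mef2 route that switches on both genes, 0 of 6 were past 2-fold and the median was -0.42. The kinase Map3k3 changed by -0.84 ± 0.07, and the factors Mef2a and Mef2c by 0.77 ± 0.12 and 0.71 ± 0.21.

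Klf3, which recruits the corepressor CtBP and is known to repress Cebpa, had a signal of 12419 in the CMP control and of 11405, 16082 and 15943 on days 4, 6 and 8. Days 6 and 8 were slightly above the control. The change was -0.12 ± 0.20, 0.31 ± 0.20 and 0.28 ± 0.20, under 2 errors on each day, and the step from day 4 to day 6 was 0.43 ± 0.20. Cebpa itself, at 2.31 at day 4, was 3.15 ± 0.20 above the control at day 8.

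Klf7, a member known from neurons and as an inhibitor of fat cell formation, differed from the control by less than 2 errors. The signal was 3288, 2633, 2750 and 3131 from the control to day 8, and the change was -0.32 ± 0.20, -0.32 ± 0.20 and -0.15 ± 0.20 at days 4, 6 and 8. The OSKM-CMP arrays were all slightly below the control.

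Klf10, found as an early gene of TGF-beta and acting on the Smad pathway, was higher at days 6 and 8. Its signal was 2626 in the CMP control and 3123, 4431 and 4312 in OSKM-CMPs. The control was the lowest array, and days 6 and 8 were alike. The change was 0.25 ± 0.20, 0.69 ± 0.20 and 0.64 ± 0.20, past 2 errors on the later 2 days and within 2-fold throughout.

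Other early genes of TGF-beta were counted beside Klf10. At day 4, 5 of 8 were at least 2-fold lower and 1 was higher, with a median of -1.18. At day 8, 3 were lower and 1 higher, with a median of -0.82. Of all genes, 9.57% were lower at day 4 and 11.6% at day 8. Ccn2 (connective tissue growth factor) fell by 3.89 ± 0.20 at day 8, and Smad7, the inhibitory Smad, fell by 1.92 ± 0.20. Ltbp2, a matrix protein of the list, rose by 1.80 ± 0.20.

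Klf13, known as a late factor of activated T cells, had 3 probes, which gave it a smaller error than the single-probe members. The RefSeq probe (chr7:71082854-71082913 on mm9, minus strand) had a signal of 1355, 1267, 1193 and 1064 in order of time. Another probe, which the files place on the opposite strand (chr7:71032482-71032541), read 910, 792, 945 and 767, and the last one, split over a junction, read only 21.8, 20.5, 19.6 and 20.1. All 3 were below the control at day 8, and whether the probe on the opposite strand detects Klf13 RNA was not tested. The mean change was -0.12 ± 0.15, -0.15 ± 0.15 and -0.31 ± 0.15, past 2 errors at day 8 alone. Without the probe on the other strand it was -0.31 at day 8, and with the RefSeq probe alone -0.43.

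**Figure D3:**
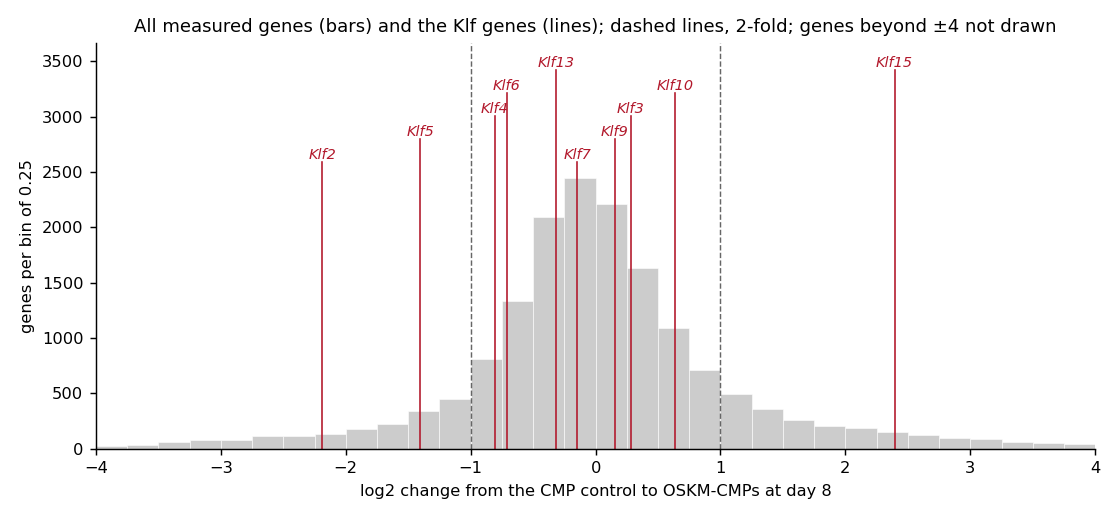
Distribution of the log2 change from the CMP control to OSKM-CMPs at day 8 over the 16658 measured genes (bars, genes per bin), with the 10 Klf genes as lines and 2-fold as dashed lines. Klf2 and Klf5 lie past the left line and Klf15 past the right line, the other 7 lie between, and 365 genes beyond the axis are not drawn.

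Of the 7 Klf genes outside the set, 6 were measured, Klf14 not being above background on any array. At day 8, Klf8 rose by 1.94 ± 0.22, with a signal of 43.8 in the control and 122.5, 147.5 and 176.9 at days 4, 6 and 8. Klf17 fell by 1.30 ± 0.27, with a signal of 58.6, 65.6, 25.2 and 25.1 from the control to day 8. Klf12, a repressor related to Klf3 and Klf8, changed by 0.81 ± 0.21. With Klf1 at its bound, 1 of the 6 was higher and 1 lower, with a median of 0.65 against -0.23 for the 10 members.

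In the related Sp family, 8 of 9 genes were measured, with 1 higher and 0 lower at day 8 and a median of 0.35. Sp5, not above background in the control, was at least 7.16-fold higher, Sp6 changed by 0.84 ± 0.31 and Sp1 by 0.52 ± 0.20. Of the cofactors of Klf proteins and the enzymes that govern their turnover, 0 of 11 were past 2-fold at day 8, and the median was 0.05. Wwp1, a ubiquitin ligase for Klf2 and Klf5, changed by -0.92 ± 0.20 at day 8. The acetyltransferases Ep300 and Crebbp, coactivators of several members, changed by 0.82 ± 0.20 and 0.76 ± 0.15.

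**Figure D4:**
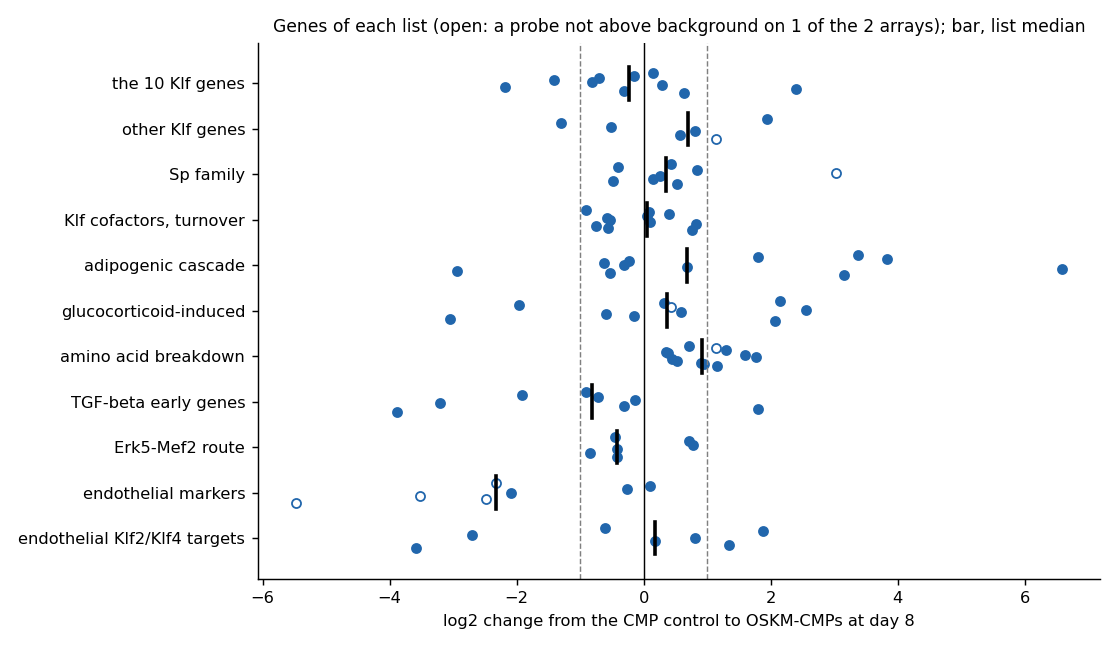
Log2 change from the CMP control to OSKM-CMPs at day 8 for each measured gene of 11 lists, with the list median as a bar, dashed lines at 2-fold and open symbols where a probe was not above background on 1 of both arrays. Genes of amino acid breakdown lie right of 0, endothelial markers reach far to the left, and the 10 Klf genes spread on both sides.

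The label of the cells was checked against their markers. All 8 cardiac mesenchymal markers were above background on all 4 arrays, with a median change of -0.30 at day 8. Being above background did not set them apart, since all 7 endothelial markers were so in the control too. The summed linear level of the mesenchymal markers in the control was 1653, against 1.89 for the endothelial and 1.40 for the leukocyte markers. Ly6a, which encodes Sca-1, rose by 2.70 ± 0.20 and Thy1 fell by 1.78 ± 0.20. Of 7 leukocyte markers, 6 were above background in the control and at day 8, with a median change of -0.65 at their bounds. Of 5 measured cardiomyocyte markers, 2 were above background in the control and 4 at day 8. The summed linear level of these 5 nevertheless went from 11.9 in the control to 4.63, 6.71 and 4.13 at days 4, 6 and 8. At day 8, 1 of the 5 was at least 2-fold higher and 1 lower, with markers below background at their bound. The part of such cells in the values of the Klf genes was not tested.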

How the data were processed

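RNA from CMP control and OSKM-CMPs at days 4, 6 and 8 (250 ng labelled with Cy3, 1 array per condition) was read on Agilent arrays. The authors deposited the scanner output, in which the processed signal is a background-subtracted intensity per spot (Feature Extraction 10.7.3.1 in the file headers, 9.5.3 in the submitters' processing notes), and a table of log2 values that equal the log2 of this signal minus a constant per array. Control and outlier spots were left out, log2 signals were averaged over the spots of a probe, and each array was set relative to its 75th percentile. Probes were kept where at least 0.5 of their spots were well above background on 1 or more arrays (35544 of 55681). Names came from RefSeq (GRCm38.p6, used for names and promoters), by accession, symbol or synonym, and 24461 probes stayed unnamed. Gene values are means over kept probes, and a gene counted as above background if all of them were. For a gene above background on 1 of the arrays compared, the fold is a lower bound, set against the lowest signal well above background. Probe positions are those of the files, on mm9.

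The Klf genes and the gene lists were chosen with earlier results of these data known. All 10 members were named, and of each other list up to 3 genes with the largest day 8 change among those above background on both of these arrays (control and day 8). The values of 1 gene that this rule names are not reported here. Genes named beyond this (Cebpa, Cebpb, Cebpd, Egr2, Prodh, Nos3, Ltbp2, Tfcp2l1, Sp5, Cdh5, Emcn, Cfd, Klf1, Lep and Mccc2) were chosen after their values were seen. For the members with the largest rise and fall, the 3 genes nearest by Euclidean distance over the 3 changes were named. Other settings were the array median or the percentile of probes above background on all 4 arrays as the scale, quantile normalization, normexp (offset 50) with quantile normalization, the authors' normalized values, the brightest probe, no dim filter or one on all 4 arrays, dim values raised to a floor, and 1.5-fold. The values relative to the shift of all genes, and Klf13 by single probes, were added after the data were seen. The calculation was tested on simulated data. The number of arrays limits the precision. Python 3.11.15, numpy 2.4.6, pandas 2.3.3, R 4.3.3 and limma 3.58.1 were used.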

Additional observations from a re-analysis of the deposited data

How the results depend on the processing

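No member past 2-fold changed sign under any of the settings run. Klf2 was at least 2-fold lower on all 3 days, and Klf15 at least 2-fold higher at days 6 and 8, under all 10 other settings. At day 4, normexp with quantile normalization left 0 members at least 2-fold higher in place of 1. The number at least 2-fold lower at day 4 was 1 in place of 2 with the percentile of probes above background on all 4 arrays, with quantile normalization, with normexp and on the array-median scale relative to all genes, in each case because Klf6 came within 2-fold. On the array-median scale itself it was 3 at days 4 and 8, Klf4 being added. With normexp it was also 1 at days 6 and 8, Klf5 being the gene lost. At 1.5-fold, 4 members were lower on each of the 3 days and 2 were higher at days 6 and 8, and of all genes 18.2%, 20.6% and 21.3% were lower and 19.7%, 20.5% and 22.5% higher on days 4, 6 and 8. The median change of the members at day 8 was -0.50 on the array-median scale, which moved the median of all genes to -0.30. Relative to that shift it was -0.20. Normexp brought the share of all genes at least 2-fold higher at day 8 from 14.4% to 6.42% and lower from 11.6% to 6.66%, and the cause was not tested. Under other settings, 383 values of single members moved by less than the error of the gene and 25 by more. The brightest-probe, dim-filter and floor settings could not move a member with 1 probe above background on all 4 arrays. The authors' values differ from the log2 signals only by a constant per array. Many of the 383 were thus fixed in advance, and the counts do not measure stability. Leaving out a replicate could not be tried with 1 array per condition. No paired analysis was possible because no condition had a second array. Signal over background limits Klf5, Klf15 and the split Klf13 probe most, being the dimmest of the 12.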

Other observations

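The genes whose changes at days 4, 6 and 8 lay nearest to those of Klf15, among 13760 genes above background on all 4 arrays, were Wnt5b, a secreted Wnt ligand, at a Euclidean distance of 0.094, Plekhg6 at 0.118 and Thrb, a thyroid hormone receptor, at 0.175. Wnt5b changed by 1.33, 2.36 and 2.39 at days 4, 6 and 8, and Thrb by 1.27, 2.13 and 2.44. The distance rests on 3 differences that share the control array. Nearest to Klf2 were Junb at 0.285, Bmper at 0.424 and Csrnp1 at 0.434. Junb, an immediate early gene of the AP-1 class, changed by -2.22, -1.20 and -2.00. It also stood higher at day 6 than on the days around it, which its selection by nearness to Klf2 favours. Bmper, a modulator of BMP signalling, changed by -2.32, -1.75 and -2.26. Of 2 other immediate early genes, which were not among these nearest genes, Dusp1 changed by -3.51, -2.13 and -3.04. Egr2 changed by -2.38, -0.07 and -0.31, and so did not fall back at day 8.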
